A study of Mus musculus with 8 samples.

Results

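The replication-dependent histone genes were taken as the protein-coding genes of GENCODE vM21 (mouse build GRCm38, mm10) whose symbol begins with Hist1, Hist2, Hist3 or Hist4, which gave 67 of 21938 genes. By histone type they were 6 genes for H1, 18 for H2A, 18 for H2B, 12 for H3 and 13 for H4. Of the 67 genes, 54 lay on chromosome 13, 10 on chromosome 3, 2 on chromosome 11 and 1 on chromosome 6. Each gene was taken with 3 kb on either side and windows that overlapped were merged, which left 17 blocks with a total length of 304 kb. Chromatin accessibility had been measured by ATAC-seq, in which the transposase Tn5 cuts open DNA and the cut sites pile up as peaks, in the cerebral cortex of 4 BCAS and 4 sham mice with 1 library for each mouse. BCAS denotes bilateral carotid artery stenosis, a lasting reduction of blood flow to the brain made by microcoils around both common carotid arteries, with the narrower coil on the right. Sham mice had the arteries exposed and received no coil. Both groups were male C57BL/6 mice 14 weeks of age. The sample labels name the cortex of the right side, whereas the library sheet describes the cortex as taken from the entire brain, so the hemisphere is uncertain.

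Histones are the proteins around which nuclear DNA is wound. H2A, H2B, H3 and H4 form the core of the nucleosome, and H1 binds the DNA that enters and leaves it. The replication-dependent copies sit in clusters, lack introns and are transcribed mainly during S phase, when newly made DNA has to be packed. Their mRNAs end in a conserved stem-loop rather than a poly(A) tail, and the stem-loop binding protein SLBP carries them through processing and translation. Most cells of the adult cortex no longer divide, and replication-independent variant genes such as H3f3b can supply histones outside S phase. The comparison between BCAS and sham mice therefore addressed whether chromatin at the replication-dependent genes was open in the adult cortex, and whether the opening differed after hypoperfusion.

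The deposited files were peak lists, 1 for each library, without read counts, so the read depth behind a peak is unknown. The paper reports an average mapping depth per sample, which was not used. The number and total length of the peaks stand in for depth here. The BCAS lists held 119565 to 160720 peaks on the 21 chromosomes covering 48.9 to 66.3 Mb, and the sham lists held 107391 to 144988 peaks covering 44.5 to 60.8 Mb. The BCAS 1 library had the longest list of the 8. Of 8 marker lists, that of microglia had 3 of 15 genes called higher in BCAS (Itgam, Irf8 and Trem2, limma on peak coverage). Over all genes and blocks tested 3.16% were called higher. The summed scaled coverage of the microglia list ranged from 30.8 to 34.3 kb in BCAS and from 23.8 to 31.1 kb in sham libraries. The 8 lymphocyte markers summed to 3.03 to 3.50 kb in BCAS and 1.58 to 2.41 kb in sham libraries, with 3 or 4 genes at 0 in BCAS and 5 at 0 in sham. The 5 endothelial markers summed to 13.1 to 14.4 kb in BCAS and 9.71 to 12.03 kb in sham libraries. Of these, 3 had a positive difference, the largest at Flt1 (mean 5830.5 bp in BCAS, 3990 bp in sham) and next at Pecam1 (3255 bp in BCAS, 2590 bp in sham). Cdh5 (2346 bp in BCAS, 2532 bp in sham) and Cldn5 (642 bp in BCAS, 691 bp in sham) were lower in BCAS. None of the 3 lymphocyte and 5 endothelial genes that could be tested was called. The part of these cell types in the histone values was not tested. Markers of proliferating cells had none of 13 genes called, at 9.24 to 11.1 kb in BCAS and 9.80 to 11.9 kb in sham. The 7 genes listed for excitatory neurons summed to 33.0 to 36.1 kb in BCAS and 35.1 to 37.7 kb in sham libraries, with at most 1 gene at 0 in any library. The largest part of this sum was Rbfox3, which marks neurons in general, at a mean of 18901 bp in BCAS and 19662 bp in sham libraries.

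The sequence features of these genes are shown first, since they identify the class and mark where open chromatin would be looked for. A stem of 6 base pairs around a loop of 4 bases was found within 150 bases after the stop codon in 63 of the 67 genes, 21 to 58 bases downstream of it, in 6 forms. The 4 genes in which this search found none were Hist2h2be, Hist1h2an, Hist1h3g and Hist1h4a. The most frequent form was carried by 41 genes, the second by 9 and the third by 8. They are shown here as DNA from GRCm38, 5′ to 3′ along the gene, with the stem in capitals and the loop in lower case, at Hist1h1c, Hist1h1t and Hist1h4k.
Hist1h1c, chr13:23739512-23739527, plus strand: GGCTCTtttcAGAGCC
Hist1h1t, chr13:23696525-23696540, plus strand: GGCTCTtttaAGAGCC
Hist1h4k, chr13:21750150-21750165, minus strand: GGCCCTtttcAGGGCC

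RefSeq promoter windows of GRCm38.p6, from 250 bases before to 50 bases after the start, were matched to 62 of the 67 genes and searched on both strands for 5 motifs, none of whose matches overlapped one of another motif. The CCAAT box (letters CCAAT) was found in 53 promoters (85.5%), compared with 37.4% of all 32851 promoters in the table. It was present in every H1, H2A, H2B and H3 promoter examined and in 3 of 12 H4 promoters. A TATA box (TATAAA) was found in 35 (56.5%, against 13.6% of all promoters). The octamer ATTTGCAT, which POU factors such as Oct1 bind, was found in 13 (21.0%, against 1.74%), which were 7 H2A and 6 H2B genes. The H1 box AAACACA was found in 9 (14.5%, against 7.18%) and in 5 of the 6 H1 genes. An E2F site (TTTGGCGC or TTTCCCGC) was found in 1, Hist1h4a (1.61%, against 1.56%). Windows of divergent genes can overlap, and a site in both windows was counted for both genes, as the TATA box at Hist1h2ak and Hist1h2bn was. The counts are therefore of genes and not of separate sites. These matches describe the letters in the windows and do not show that a factor bound there.

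The 250 bases before the RefSeq start are given for 6 genes, 5′ to 3′ along the gene, with the motif letters in capitals on either strand. Hist1h2bk and Hist1h1c are included because their promoters ranked first among H2B and H1 genes, and Hist1h3e and Hist1h4c because their ranks in the BCAS and sham libraries did not overlap. Hist1h1t and Hist1h2ba, which are expressed in testis, carried the same kinds of motif and had no peak in any library.
Hist1h2bk, chr13:22035571-22035820, plus strand: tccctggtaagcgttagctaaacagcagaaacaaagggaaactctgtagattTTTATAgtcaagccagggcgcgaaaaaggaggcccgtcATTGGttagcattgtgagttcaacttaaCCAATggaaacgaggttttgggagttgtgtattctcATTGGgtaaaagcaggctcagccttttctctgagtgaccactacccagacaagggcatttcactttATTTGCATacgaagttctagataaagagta
Hist1h1c, chr13:23738557-23738806, plus strand: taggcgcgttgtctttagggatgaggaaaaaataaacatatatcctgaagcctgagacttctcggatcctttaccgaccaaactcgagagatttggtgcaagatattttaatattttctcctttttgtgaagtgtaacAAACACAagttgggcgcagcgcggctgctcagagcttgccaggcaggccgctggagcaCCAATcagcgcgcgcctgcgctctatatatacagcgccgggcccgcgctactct
Hist1h3e, chr13:23562386-23562635, minus strand: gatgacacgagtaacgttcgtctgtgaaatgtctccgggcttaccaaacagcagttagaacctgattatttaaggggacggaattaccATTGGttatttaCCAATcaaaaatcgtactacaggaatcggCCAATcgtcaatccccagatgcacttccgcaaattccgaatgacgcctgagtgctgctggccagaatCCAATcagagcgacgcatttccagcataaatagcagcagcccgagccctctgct
Hist1h4c, chr13:23698459-23698708, minus strand: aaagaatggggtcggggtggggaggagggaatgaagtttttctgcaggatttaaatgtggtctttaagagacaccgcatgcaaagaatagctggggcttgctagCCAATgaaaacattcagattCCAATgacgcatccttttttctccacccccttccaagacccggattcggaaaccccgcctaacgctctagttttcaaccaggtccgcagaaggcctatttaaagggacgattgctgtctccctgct
Hist1h1t, chr13:23695561-23695810, plus strand: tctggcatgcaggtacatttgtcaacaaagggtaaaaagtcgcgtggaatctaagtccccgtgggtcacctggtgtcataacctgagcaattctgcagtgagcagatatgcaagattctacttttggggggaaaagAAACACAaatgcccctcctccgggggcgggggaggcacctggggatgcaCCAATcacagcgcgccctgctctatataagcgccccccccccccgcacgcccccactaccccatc
Hist1h2ba, chr13:23934157-23934406, minus strand: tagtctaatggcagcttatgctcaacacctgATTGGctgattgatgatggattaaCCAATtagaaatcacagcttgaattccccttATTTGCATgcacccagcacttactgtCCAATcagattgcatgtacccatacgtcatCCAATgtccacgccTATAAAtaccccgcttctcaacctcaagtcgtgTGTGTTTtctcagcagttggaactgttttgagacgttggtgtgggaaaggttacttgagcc

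Chromatin at most of these genes was open in the adult cortex of both groups. A peak overlapped the promoter, taken as 250 bp before to 50 bp after the annotated start, in all 8 libraries at 60 of the 67 genes (89.6%), compared with 51.6% of the 21871 other protein-coding genes. By library, 60 to 62 of the 67 genes had such a peak in BCAS and likewise 60 to 62 in sham libraries. At the start itself, a mean of 90.3 ± 1.93% of the histone genes lay under a peak in BCAS libraries and 90.7 ± 1.88% in sham libraries (SD, n = 4 each). The other genes gave 55.7 ± 1.13% in BCAS and 53.6 ± 1.33% in sham libraries. Peaks also reached further upstream at histone genes, where 23.5 ± 1.43% in BCAS and 20.9 ± 1.22% in sham libraries were covered 1000 bp before the start, against 3.13% in BCAS and 2.89% in sham libraries at other genes. Some histone genes lie within this distance of each other, and the promoter peak of a neighbour is counted here as well. The 64 peak regions found in the blocks after merging all libraries had a median length of 798.5 bp, 47 of them covered the start of at least 1 histone gene, and 15 covered 2 or more starts.

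**Figure D1:**
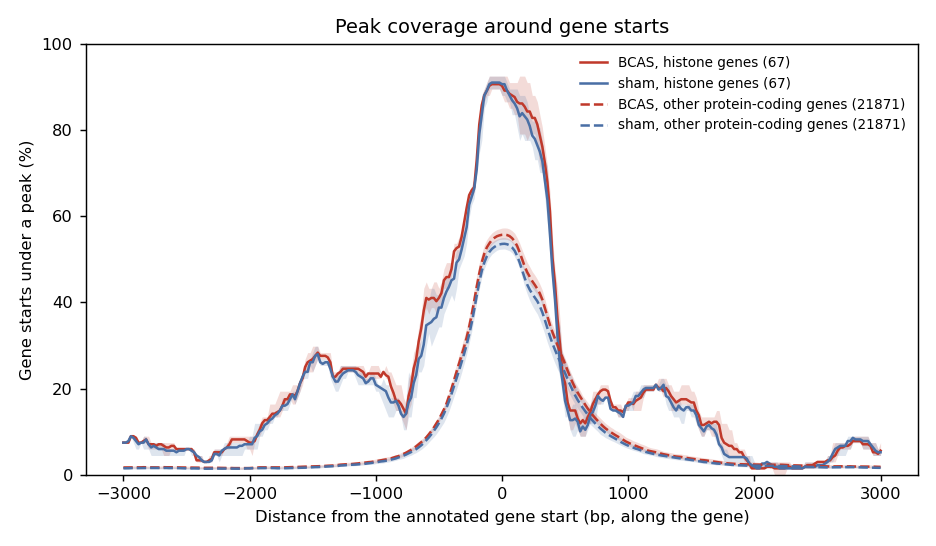
Share of gene starts under a peak (percent) at each distance from the annotated start (bp), for the 67 histone genes (solid lines) and the other 21871 protein-coding genes (dashed lines); lines are means of 4 BCAS (red) or 4 sham (blue) libraries and bands run from the lowest to the highest library. At the start the histone genes reach 90.3% in BCAS and 90.7% in sham libraries, and the other genes reach 55.7% in BCAS and 53.6% in sham libraries.

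The 5 genes without a promoter peak in any library were of more than one kind. Hist1h2ba and Hist1h2aa, the testis H2B and H2A genes, form a divergent pair of their own at chr13:23930773-23937851, and no peak of any library fell in that block. Hist1h1t, the testis linker histone at chr13:23695814-23696725, had no base of its coding sequence covered in any library, although Hist1h2bc and Hist1h4c on either side had peaks in all 8. Hist1h3f (H3) and Hist1h1d (H1) lacked a peak only at the annotated gene start, which lies upstream of the coding sequence. At the start of the coding sequence both had a peak in all 8 libraries. The fold enrichment there at Hist1h3f was 8.87, 7.75, 8.74 and 8.38 in the BCAS libraries and 9.12, 7.79, 9.57 and 8.46 in the sham libraries. Taken from the coding start, 62 of the 67 genes had a peak in all 8 libraries and 3, the testis genes, in none.

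The remaining 2 genes had a peak in some libraries. Hist1h1b, a linker histone gene of dividing cells at chr13:21779883-21780625, had a promoter peak in 1 of 4 BCAS libraries, with a fold enrichment of 3.33, and in 3 of 4 sham libraries, at 3.64, 3.48 and 3.67. The merged region over its start, chr13:21780266-21780776, was present in 1 BCAS and in all 4 sham libraries. Hist1h3c, an H3 gene, had a promoter peak in 2 of 4 BCAS and 1 of 4 sham libraries. Across the blocks, 57 of 64 regions (89.1%) were present in all 8 libraries, compared with 36.2% of the 197916 regions of the genome. No histone region was present in every BCAS and no sham library, or the reverse, while 1.62% of all regions were of the first kind and 0.0945% of the second. Of the 7 regions that some library lacked, 5 lay away from any histone gene start, among them chr13:23697488-23697735 at the 3′ end of Hist1h4c, with a peak in 2 BCAS libraries and no sham library.

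Many H2A and H2B genes are arranged head to head and share a promoter. There were 12 such divergent pairs with starts 176 to 306 bp apart, and in 11 of them a single peak spanned both starts in all 8 libraries. The exception was the testis pair Hist1h2ba and Hist1h2aa. Both genes of a pair then took the same peak, so their promoter values are 1 measurement and not 2.

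The length of DNA under peaks in each block, scaled to the total length of each library's list, did not separate the groups. Summed over the 17 blocks it was 45.7 ± 5.39 kb in BCAS and 46.1 ± 5.23 kb in sham libraries (SD, n = 4 each). Before scaling the sums were 46.5 ± 1.58 kb in BCAS and 44.1 ± 1.88 kb in sham libraries, so the histone blocks gained little length in the longer lists. None of the 16 blocks with any peak was called higher or lower in BCAS by limma with Benjamini-Hochberg adjustment over 16986 genes and blocks, and none had an unadjusted p under 0.05. Over all features 3.16% were called higher and 0.377% lower, and without scaling 222 features were higher and 1 lower, against 536 and 64 with it. In no block were all BCAS values above or below all sham values, compared with 6.05% of features above and 2.47% below. Because bulk tissue was used, fewer open cells and a weaker opening in each cell cannot be told apart in any of these values.

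The block differences lay between -0.19 and 0.09 on the log2(scaled bp + 200 bp) scale, with a median of 0.00 over the blocks and 0.00 over all features. Their 95% intervals reached no further than -0.41 and 0.36 on the same scale, for lengths scaled to the same total. The direction depended on the scaling. With scaling 8 of 16 blocks had a positive difference, without it 15 of 16 (median 0.08, and 0.08 over all features), with each library centred on its median 4, with the number of peaks as covariate 15 and with the GC content of the peak DNA as covariate none (median -0.16 against -0.05 over all features, lowest adjusted p = 0.200 by limma). It also turned with single libraries, from 15 positive blocks without BCAS 1 to 2 without BCAS 3 or without sham 3. No block was called in any of these fits. At an unadjusted p under 0.05 (limma) there were 3 blocks with the GC content as covariate, 1 with centring and 1 without sham 3. The other fits named here had none. The share over all features at that p was computed for the main fit only, so these counts cannot be set against a background.

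**Figure D2:**
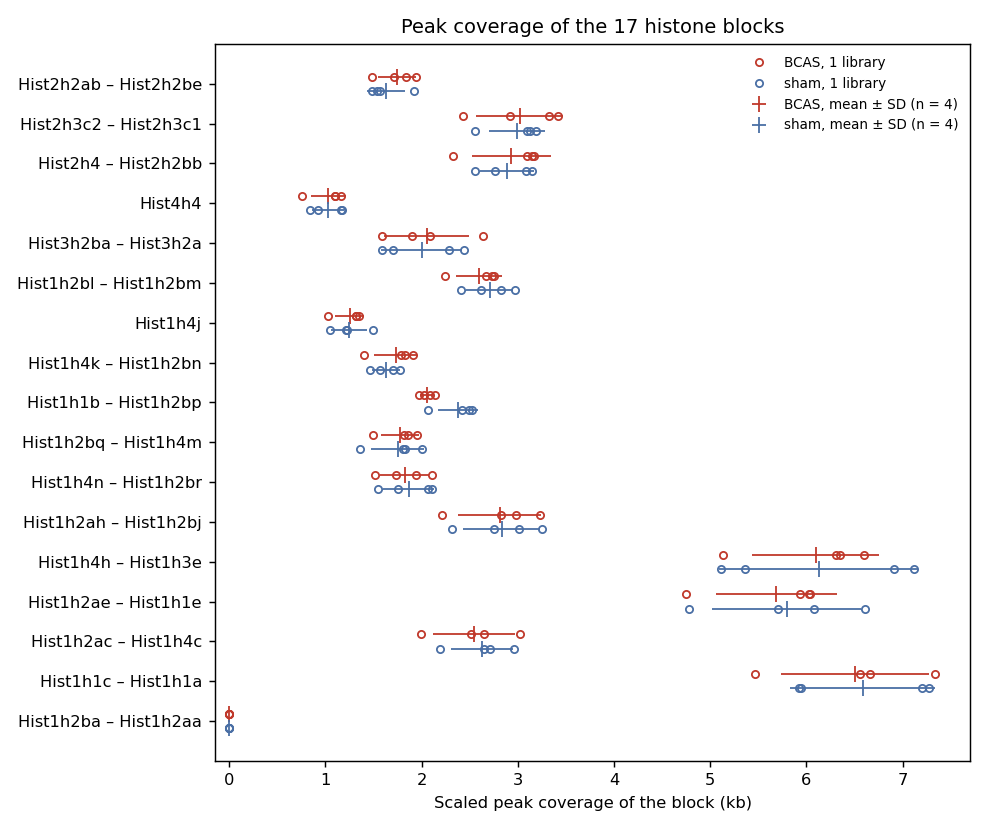
Scaled peak coverage (kb of DNA under peaks) of the 17 histone blocks, named by their first and last gene, in each of the 4 BCAS (red) and 4 sham (blue) libraries, with mean and SD. The values of the 2 groups overlap in every block, and the Hist1h2ba – Hist1h2aa block is at 0 in all 8 libraries.

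The largest difference was in the block from Hist1h1b to Hist1h2bp (chr13:21776883-21792213), which holds Hist1h1b, Hist1h3i, Hist1h2an and Hist1h2bp. Its scaled coverage was 2029, 1978, 2144 and 2084 bp in the BCAS libraries and 2494, 2419, 2072 and 2520 bp in the sham libraries. The BCAS values were lower than those of sham 1, 2 and 4 and overlapped that of sham 3. The difference was -0.19 (SE 0.11, unadjusted p = 0.0952, adjusted p = 0.450 by limma). In a limma fit of the single genes with their own windows, the lowest p of the 65 genes tested were those of Hist1h3i (-0.47, adjusted p = 0.105) and Hist1h1b (-0.33, adjusted p = 0.188). Neither was called. The 2 windows overlap and both hold the region over the Hist1h1b start, so the 2 values are not separate. Before scaling that region had 400, 0, 0 and 0 bp in BCAS and 200, 461, 342 and 200 bp in sham libraries. The region over the Hist1h3i start had 532, 497, 581 and 481 bp in BCAS and 535, 578, 557 and 583 bp in sham libraries.

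The other blocks on chromosome 13 showed similar coverage in the groups. The one with the most genes, Hist1h1c to Hist1h1a with 9 (chr13:23735808-23767406), had 5469, 6560, 7338 and 6656 bp in BCAS and 7271, 5942, 5925 and 7200 bp in sham libraries. The block Hist1h4h to Hist1h3e with 8 genes averaged 6096 ± 658 bp in BCAS and 6128 ± 1035 bp in sham libraries. The block Hist1h2ae to Hist1h1e, also with 8 genes, averaged 5685 ± 629 bp in BCAS and 5793 ± 773 bp in sham libraries. In these 3 blocks the mean difference was smaller than the SD of either group. The blocks Hist1h2ac to Hist1h4c, Hist1h2bl to Hist1h2bm, Hist1h2ah to Hist1h2bj, Hist1h4k to Hist1h2bn and Hist1h4j differed by -0.05, -0.05, -0.01, 0.07 and 0.01 on the log2 scale. The block Hist1h4k to Hist1h2bn was the only one whose unscaled lengths did not overlap, at 1762, 1748, 1759 and 1766 bp in BCAS and 1445, 1631, 1679 and 1501 bp in sham libraries. Its scaled values did overlap. The share of all features whose unscaled lengths did not overlap was not computed.

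Some blocks are near-identical copies of each other, and how reads that fit both copies were treated is not given in the sources used here. In the neighbouring blocks Hist1h2bq to Hist1h4m and Hist1h4n to Hist1h2br, 73.4% and 72.0% of all 150-base windows occurred again within the histone blocks. Coverage averaged 1780 ± 198 bp in BCAS and 1751 ± 272 bp in sham libraries in the one, and 1825 ± 255 bp in BCAS and 1868 ± 267 bp in sham libraries in the other, and both are uncertain for that reason. On chromosome 3 the same held for 18.2% of windows in each of the blocks Hist2h3c2 to Hist2h3c1 and Hist2h4 to Hist2h2bb.

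**Figure D3:**
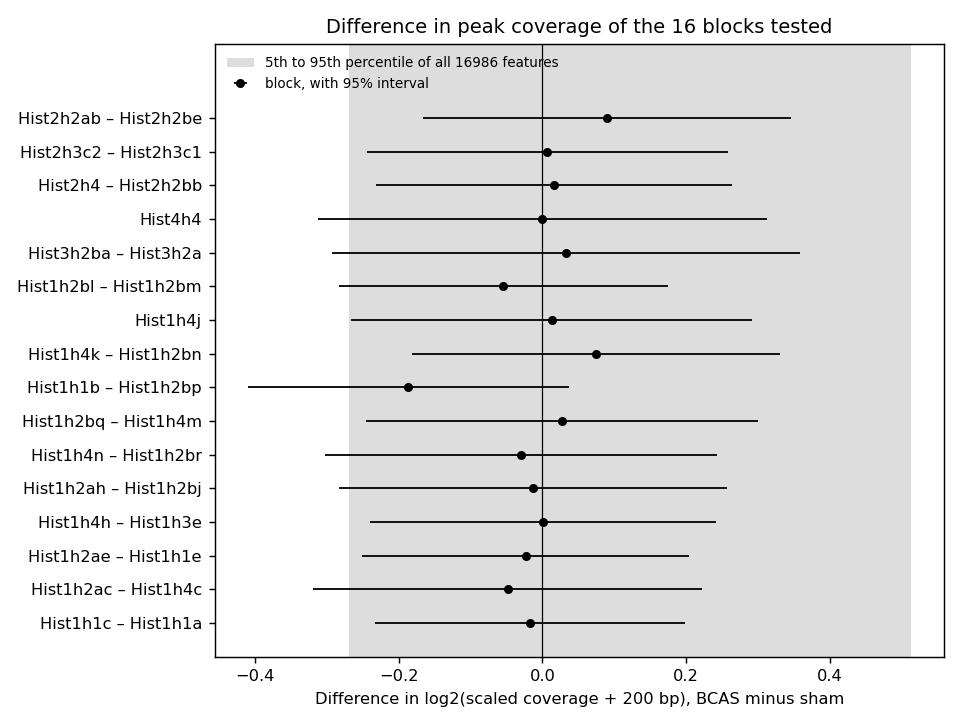
Difference between BCAS and sham in log2(scaled coverage + 200 bp) for the 16 blocks tested, with 95% intervals (limma), and the range from the 5th to the 95th percentile of all 16986 features (grey, -0.27 to 0.51). All 16 intervals include 0, and the points lie between -0.19 and 0.09.

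The clusters outside chromosome 13 gave no call either. The block Hist2h2ab to Hist2h2be, with an H2A gene followed by a divergent H2A and H2B pair that includes Hist2h2ac, had 1486, 1715, 1835 and 1938 bp in BCAS and 1921, 1537, 1486 and 1566 bp in sham libraries, the highest difference of any block at 0.09 (adjusted p = 0.848 by limma). This block also overlaps Bola1, and the block Hist3h2ba to Hist3h2a overlaps Trim17, neither of which is a histone gene. The block Hist2h3c2 to Hist2h3c1, with the H2A copies Hist2h2aa2 and Hist2h2aa1 between the H3 copies, differed by 0.01, and Hist2h4 to Hist2h2bb, which includes Hist2h3b, by 0.02. Hist3h2ba to Hist3h2a averaged 2054 ± 441 bp in BCAS and 2002 ± 421 bp in sham libraries. Hist4h4, a lone H4 gene at chr6:136801553-136804415, had 760, 1105, 1097 and 1158 bp in BCAS and 1159, 927, 846 and 1177 bp in sham libraries, with means of 1030 ± 182 bp in BCAS and 1027 ± 166 bp in sham.

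Peak strength was compared through the rank of each promoter's strongest peak by fold enrichment, given as the percentile among all 21938 genes of that library, with 0 for a promoter without a peak. Ranks were used because fold enrichment depends on the depth of a library. Hist1h2ah and Hist1h2bk, a divergent H2A and H2B pair at chr13:22035164-22036345, ranked highest of all histone promoters, at 85.0, 86.5, 83.3 and 87.1 in BCAS and 81.3, 86.3, 86.6 and 83.7 in sham libraries. Hist1h4c (H4) came next, followed by the pair Hist1h2ac and Hist1h2bc, at 72.2 ± 2.91 in BCAS and 74.8 ± 5.92 in sham libraries. Hist1h2bc is one of the copies known to make polyadenylated mRNA in differentiated cells as well. The lowest promoters with a peak in all 8 libraries were of the H3 type, Hist1h3d at 42.6 ± 0.98 in BCAS and 45.0 ± 1.31 in sham and Hist1h3h at 42.9 ± 1.06 in BCAS and 44.9 ± 1.60 in sham libraries. In this order 42 of the 48 neighbouring pairs lay closer together than the smaller SD of the 2 groups, and the pair Hist1h2ah and Hist1h2bk was the highest in each of the 8 libraries.

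By type, the median rank of promoters with a peak in all libraries was highest for the 17 H2B genes, at 58.6 in BCAS and 62.5 in sham libraries, and lowest for the 10 H3 genes, at 47.4 in BCAS and 50.3 in sham libraries. It was 57.0 in BCAS and 53.7 in sham for 3 H1 genes, 54.8 in BCAS and 55.7 in sham for 17 H2A genes, and 50.4 in BCAS and 53.7 in sham for 13 H4 genes. The 11 divergent pairs with a shared peak enter the H2A and H2B medians alike, so these medians differ only through the remaining genes. Among the remaining H2B genes is Hist1h2be, whose promoter peak lies far from its coding sequence. The types also differed in how far the peaks ran into the gene. The H4 coding sequences, the shortest of the class, lay wholly under peaks at all 13 genes in all 8 libraries. Coverage of the coding sequence was averaged over all genes of a type (18 H2A, 18 H2B, 12 H3 and 6 H1), not only those with a promoter peak. The H1, H2A and H2B averages thus include a testis gene at 0. Coverage averaged 86.8 ± 1.04% in BCAS and 85.5 ± 1.50% in sham libraries for H2A (SD, n = 4 libraries each). It was 82.5 ± 3.89% in BCAS and 74.9 ± 9.80% in sham for H2B. It was 60.6 ± 9.22% in BCAS and 57.8 ± 3.11% in sham for H3, and 44.3 ± 1.74% in BCAS and 41.1 ± 4.55% in sham for H1. These SDs are between libraries and not between genes. Among H3 genes, Hist1h3f was wholly covered in every library and Hist2h3c2 at most to 1.47%. H1 coding sequences are the longest of the class, and the share covered was not corrected for length.

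**Figure D4:**
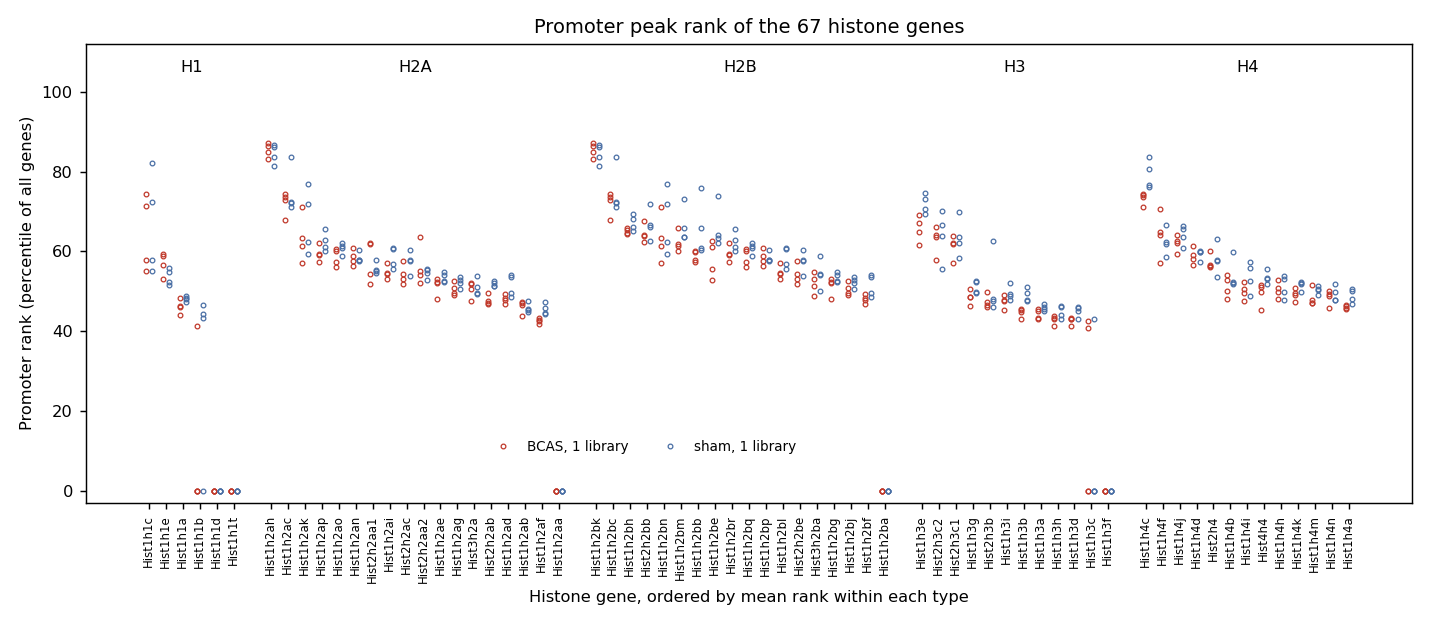
Promoter rank (percentile among all genes of a library by fold enrichment of the strongest promoter peak, 0 without a peak) of the 67 histone genes in each of 4 BCAS (red) and 4 sham (blue) libraries, by histone type and mean rank. Hist1h2ah and Hist1h2bk lie above 81 in all 8 libraries, 5 genes are at 0 in all 8, and Hist1h1b and Hist1h3c are at 0 in some.

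No histone promoter was called in the rank comparison. Of the 67 genes, 61 had a peak in at least 4 libraries and entered a limma fit over 12629 promoters, in which 0.8% were called higher and 0.15% lower in BCAS. The lowest adjusted p among the histone promoters was 0.297, and 5 (8.2%) had an unadjusted p under 0.05, all with lower ranks in BCAS, compared with 5.9% lower and 5.93% higher over all promoters. This count ranged from 2 with a promoter of 1 kb on each side, or without BCAS 3, to 13 with the GC content of the peak DNA as covariate. The share over all promoters was computed for the main fit only, so the counts of the alternatives cannot be set against a background. A negative difference was seen at 54 of the 61 promoters and a positive one at 7 (11.5%), compared with 46.0% positive over all promoters, and the median was -2.29 percentile points against -0.29 over all. These 61 promoters gave 50 distinct sets of values, since divergent pairs share a peak. At 8 of them (13.1%) every BCAS rank lay below every sham rank, compared with 4.56% of all promoters, and at none did every BCAS rank lie above, compared with 3.75%. The lowest rank that a promoter with a peak can take moved in the same direction, at 40.6 to 43.1 in BCAS and 42.8 to 45.5 in sham libraries. Promoters with a peak numbered 12491 to 13028 in BCAS and 11965 to 12554 in sham libraries. When the ranks were taken only among the 11350 promoters with a peak in all libraries, 13 of 60 histone promoters had a positive difference. The median was then -2.95 against -0.32 over all, and no histone promoter was called (lowest adjusted p = 0.279 by limma). An unadjusted p under 0.05 was seen at 6 histone promoters, and the share over all promoters was not computed for this fit either. These points are percentiles of 11350 promoters and not of 21938, so the size of -2.95 cannot be set against -2.29.

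The 8 promoters without overlap belonged to Hist1h3e and Hist1h3b (H3), Hist2h2ab and Hist1h2af (H2A), Hist1h2bb (H2B) and Hist1h4c, Hist4h4 and Hist1h4a (H4). Hist1h3e had ranks of 67.1, 61.6, 65.0 and 69.1 in BCAS and 69.4, 73.1, 70.6 and 74.7 in sham libraries, and BCAS 4 came within 1 percentile point of sham 1. Its difference was -6.25 points (SE 2.17, unadjusted p = 0.0190, adjusted p = 0.297 by limma). Hist2h2ab had ranks of 47.4, 46.8, 47.2 and 49.6 in BCAS and 52.1, 51.3, 51.3 and 52.6 in sham libraries, a difference of -4.09 points (adjusted p = 0.302). Both groups of Hist2h2ab were narrow, with an SD of 1.26 in BCAS and 0.618 in sham libraries.

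Hist1h4c, the strongest H4 promoter, had ranks of 73.5, 74.4, 71.1 and 74.1 in BCAS and 80.7, 76.6, 76.1 and 83.6 in sham libraries. The difference was -5.95 points (SE 2.32, adjusted p = 0.362 by limma), while the block that holds it showed no such gap in coverage. Hist1h3b differed by -4.30, Hist4h4 by -4.01 and Hist1h2bb by -6.90 points, with adjusted p of 0.370, 0.451 and 0.462. Hist1h2be had the largest negative difference among promoters with a peak in all libraries, -7.92 points (adjusted p = 0.376), and its groups overlapped. The annotated gene is 37455 bp long and starts inside Hist1h1e, so this peak is far from the Hist1h2be coding sequence.

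The linker histone genes varied among themselves. Hist1h1c, a linker histone that is also expressed in differentiated cells, had ranks of 55.1, 57.8, 71.3 and 74.4 in BCAS and 55.1, 57.9, 72.4 and 82.0 in sham libraries. In either group libraries 1 and 2 were low and libraries 3 and 4 high, and the difference was -2.21 points with a 95% interval of -17.6 to 13.2. Hist1h1e had ranks of 53.1, 58.9, 59.2 and 56.6 in BCAS and 51.7, 54.9, 52.2 and 55.9 in sham libraries, the largest positive difference of any histone promoter at 3.29 points (SE 1.85, adjusted p = 0.533 by limma). Hist1h1a averaged 46.2 ± 1.71 in BCAS and 48.1 ± 0.613 in sham libraries. For Hist1h1b, with 3 BCAS libraries and 1 sham library entered at 0, the fit gave -23.2 points with a 95% interval of -59.5 to 13.0 (adjusted p = 0.619), set mainly by the libraries without a peak.

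At the promoters of Hist2 and Hist3 genes not named so far the groups overlapped as well. Hist2h2ac and Hist2h2be, a divergent pair, averaged 54.2 ± 2.41 in BCAS and 57.4 ± 2.73 in sham libraries. Hist2h2bb averaged 64.5 ± 2.25 in BCAS and 66.8 ± 3.79 in sham libraries, and Hist2h4 averaged 57.3 ± 1.93 in BCAS and 58.0 ± 3.92 in sham libraries. Of the H3 copies, Hist2h3c2 averaged 62.9 in BCAS and 64.0 in sham, and Hist2h3c1 averaged 61.2 in BCAS and 63.5 in sham. Of the H2A copies, Hist2h2aa2 averaged 56.2 in BCAS and 54.6 in sham, and Hist2h2aa1 averaged 57.5 in BCAS and 55.7 in sham. Hist2h3b averaged 47.4 ± 1.66 in BCAS and 51.1 ± 7.74 in sham libraries, where sham 3 alone reached 62.6. Hist3h2ba averaged 52.0 ± 2.62 in BCAS and 54.3 ± 3.62 in sham libraries, and Hist3h2a 50.5 ± 2.06 in BCAS and 51.0 ± 2.10 in sham libraries.

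The genes that serve the replication-dependent histones were examined by the same coverage fit. Of 16 genes for transcription and 3′ end processing of histone mRNA none was called, with 7 positive differences and a median of -0.02 (log2). Slbp, the stem-loop binding protein, averaged 1201 ± 240 bp in BCAS and 1113 ± 411 bp in sham libraries (adjusted p = 0.865 by limma). Npat, the S-phase coactivator of histone gene transcription, averaged 1107 ± 196 bp in BCAS and 1234 ± 119 bp in sham libraries (adjusted p = 0.740). None of 17 S-phase drivers was called (median -0.07), with E2f2 nearest to the threshold at 1311 bp in BCAS and 933 bp in sham (0.41, adjusted p = 0.0963), and none of 10 histone chaperones (median 0.04) or 11 replication-independent variant genes (median 0.03). At an unadjusted p under 0.05 there was 1 gene higher and 1 lower of the 16, likewise 1 higher and 1 lower of the 17, and none of the 10 or the 11, compared with 10.6% higher and 4.39% lower over all features.

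In the promoter ranks, 1 gene of these lists was called. Nasp, a chaperone that binds histones H3 and H4 as well as H1 before they are assembled into chromatin, had ranks of 56.7, 54.8, 55.5 and 55.2 in BCAS and 63.4, 61.9, 63.3 and 64.4 in sham libraries. The groups did not overlap, and the promoter peak of Nasp ranked lower in BCAS by -7.67 points (SE 1.24, adjusted p = 0.0290 by limma). The call was lost in 12 of 17 alternatives, among them the replicate block (-7.67, adjusted p = 0.211) and each fit that left out 1 library other than sham 4, while the sign stayed negative in all 17. Over the 8 fits without 1 library the difference lay between -8.11 and -7.28, with adjusted p between 0.0466 and 0.120 by limma. Of the other 9 chaperones tested none was called, nor was any of the 12 processing genes, 16 S-phase drivers and 9 variant genes that entered the rank fit.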

How the data were processed

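ATAC-seq libraries of cerebral cortex from 4 BCAS and 4 sham mice were compared. Per the labels, the authors' tools were FastQC and Trim Galore for read quality and trimming, Bowtie2 2.3.4.3 for alignment (build mm10), SAMtools 1.9, MACS2 for peak calling and DiffBind. The deposited lists give, for each peak, an integer score, a fold enrichment over background, -log10 p, -log10 q and the summit offset. For peak-calling options, any Tn5 shift and reads with several matches, the treatment was not given in the sources used here. No read counts were used, so the read depth behind a peak is unknown. The average mapping depth per sample that the paper reports was not used.

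The members and gene lists were chosen with earlier results of these data known. Named were all blocks, all H1, Hist2, Hist3 and Hist4 genes, genes lacking a promoter peak in a library, Slbp, Npat and called genes of the lists. Other genes were named after their values were seen. Coverage was the length of merged peaks in a gene window of 3 kb on either side, scaled to the mean total of 52852121 bp, as log2(bp + 200), for features averaging at least 200 bp. Promoter ranks required a peak in 4 libraries. Both were fitted with limma 3.58.1 (R 4.3.3, trended variance) with Benjamini-Hochberg adjustment at 0.05, without covariate, and the fits were tested on simulated data. P-values measure the spread between mice. Lists were summarised with Python 3.11.15, pandas 2.3.3 and numpy 2.4.6. Alternatives changed scaling, pseudocount, windows, thresholds, covariates and samples.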

Additional observations from a re-analysis of the deposited data

Results flagged for a closer look

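Of 132 groups of 4 libraries examined (16 blocks and 50 distinct promoter values, with promoters that share a peak counted once), 17 had a single library far from the other three, where chance alone gives about 1 in 20 groups. BCAS 1, the library with the longest peak list, was the outlying one in 8 of the 17. Its scaled coverage was the low value at Hist2h4 to Hist2h2bb (2323 bp, the other BCAS libraries 3097 to 3174 bp), Hist4h4 (760 bp, others 1097 to 1158 bp), Hist1h2bl to Hist1h2bm (2247 bp, others 2673 to 2752 bp), Hist1h4j (1025 bp, others 1320 to 1349 bp) and Hist1h2ae to Hist1h1e (4745 bp, others 5934 to 6038 bp). Scaling divides by the total length of the list, and BCAS 1 had the largest total.

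In promoter rank BCAS 1 stood apart at Hist2h4 (60.2, other BCAS libraries 56.0 to 56.6), Hist1h3d (41.2, others 42.9 to 43.3) and Hist1h1b (41.2, the others without a peak and at 0). BCAS 4 stood apart at Hist1h4m (51.4, others 47.0 to 47.7).

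Among sham libraries, sham 3 was low in coverage of Hist2h3c2 to Hist2h3c1 (2557 bp, others 3092 to 3194 bp) and high in rank at Hist2h3b (62.6, others 46.2 to 48.0). Sham 1 was low in rank at Hist1h4k (49.8, others 51.9 to 52.3), Hist1h4d (57.4, others 59.7 to 60.2) and Hist1h1b (0, others 43.4 to 46.4) and high at Hist1h2an and Hist1h2bp (60.3, others 57.5 to 57.9). Sham 4 was high at Hist1h2ac and Hist1h2bc (83.6, others 71.0 to 72.5) and at Hist1h4b (59.9, others 51.8 to 52.3).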

How the results depend on the processing

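The count of called histone blocks and promoters stayed at 0 in both directions under every alternative run, including those that left out each library in turn (0 to 0). In peak coverage, the deviations of same-numbered BCAS and sham libraries from their group means had correlations of -0.16, -0.01, -0.10 and 0.14. These were not computed for the promoter ranks, so whether the numbers pair the libraries is not settled. With the replicate block 0 blocks and 0 promoters were called. Over all features 777 were called higher and 159 lower with it, against 536 and 64 without it. Over the other coverage alternatives the features called ranged from 196 to 665 higher and from 1 to 90 lower. For promoters the ranges were 7 to 193 higher and 0 to 46 lower, with 7 and 0 under the replicate block, against 101 and 19. The lowest adjusted p of a block (limma) ranged from 0.200 with GC content as covariate to 0.634 without BCAS 2. In the fit of single genes, which holds no merged blocks, the lowest was 0.105. The median block difference turned sign with the covariate and with the libraries left out, from -0.16 to 0.09. The median promoter difference stayed negative, from -3.13 with GC content as covariate to -1.74 without BCAS replicate 1, with 5 to 14 positive promoters. The rank among promoters with a peak in all libraries was chosen after seeing the data, and its percentile points are on another scale than those of the other alternatives. Without read counts, changes within a peak that alter neither its length nor its rank could not be detected.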
